A study of Mus musculus with 16 samples.

Results

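The genes described here are 10 members of the Atf4 pathway of amino acid stress: Atf4, Atf5, Ddit3, Ddit4, Trib3, Sesn2, Asns, Psat1, Shmt2 and Mthfd2. They were taken by gene symbol from a table of read counts, and all 10 were found among its 24394 genes. All 10 also passed the filter on low counts, which left 14862 genes for testing. The source was mouse bone marrow, from which CD8+ T cells were sorted by flow cytometry. The mice had bone marrow failure (BMF), in which an immune attack destroys the marrow, and some were given baricitinib (BAR), a drug that inhibits the kinases JAK1 and JAK2. The 16 libraries fell into 4 groups: 5 from untreated BMF mice and 5 from BAR-treated BMF mice at day 10 after induction, and 3 of each at day 14. All groups therefore carried bone marrow failure, and healthy marrow is not analysed here. The labels give no strain, age or dose. They describe the cells as pooled and do not say whether each library is a separate animal. The p-values therefore reflect only how far these libraries spread, and that spread may be technical.

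Amino acid shortage and other stresses activate kinases that phosphorylate the translation factor eIF2 alpha. This lowers general protein synthesis but favours translation of the Atf4 mRNA, and the Atf4 protein then switches on genes of amino acid synthesis, amino acid uptake and stress defence. Because much of this control acts on translation, the Atf4 mRNA measured here does not show the amount of Atf4 protein. In dividing T cells the pathway is known for supplying asparagine, serine and one-carbon units for growth.

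The binding site through which Atf4 acts, often together with a C/EBP protein, is the C/EBP-ATF element, written here as TGATGNAA. It was searched on both strands in 12 RefSeq promoters (build GRCm38.p6, from 250 bases before to 50 after the start) of the 10 genes. It was found in 2 of the 12, those of Asns and Trib3, and in 3.97% of all 32851 promoters of that length. Among the 14187 promoters of genes tested the share was 2.51%. The stricter form TGATGCAA, which every TGATGNAA search also covers, was found in 0 of the 12 and in 0.895% of all, and the E-box CACGTG in 0 of the 12 and in 7.15% of all. Among promoters of genes tested TGATGCAA was found in 0.67% and CACGTG in 9.37%. A match describes the letters in this window only. The 30 bases around each of the 2 matches are shown. Asns and Trib3 also had the largest positive fold changes of the 10 genes with BAR at day 14, although that of Trib3 did not pass the test. Whether the element had a part in these changes was not tested. The capitals mark the element, which in Trib3 reads on the opposite strand.

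Asns, minus strand, chr6:7693214-7693243: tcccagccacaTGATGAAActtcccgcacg

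Trib3, minus strand, chr2:152344028-152344057: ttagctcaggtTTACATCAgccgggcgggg

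The element lay from -23 to -16 relative to the RefSeq start in Asns, and from 15 to 22 after it in Trib3. The gene spans given below are from GENCODE and place the starts elsewhere, at 7693254 for Asns and 152344032 for Trib3. By those starts the Asns element lies inside the gene and the Trib3 element before it. Which side of the start each element is on therefore depends on the annotation.

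Several features of the libraries are given first because they moved with some of the results. Totals ran from 26134894 to 58823116 counts, and the CD8 and CD3 genes were high in every library (Cd8a 584 to 911 CPM, which are counts scaled to a library total of 1000000; Cd3e 764 to 1609 CPM). The summed level of 8 CD8 T cell markers was 6135 to 7423 CPM in BMF and 6098 to 7775 CPM in BAR at day 10. At day 14 it was 8201 to 9722 CPM in BMF and lower in BAR, at 6628 to 7247 CPM, with no overlap. Rn45s, the ribosomal RNA precursor, took 5.53%, 4.83%, 5.81%, 2.73% and 1.15% of counts in BMF replicates 1 to 5 at day 10, and 1.22% to 1.43% in BAR at day 10. It took 1.70% to 2.52% in BMF and 0.714% to 2.38% in BAR at day 14. The summed level of 12 neutrophil markers was 2415 to 9876 CPM in BMF and 4727 to 13900 CPM in BAR at day 10, then 2680 to 21520 CPM in BMF and 38010 to 49360 CPM in BAR at day 14. None of these 12 markers was at 0. The 11 monocyte and macrophage markers, none at 0, were likewise highest in BAR at day 14 (3814 to 4468 CPM, against 553 to 1848 CPM in the other groups). Erythroid markers were at 632 to 1241 CPM there against 11.8 to 449 CPM elsewhere, with the globin genes Hba-a1, Hba-a2, Hbb-bs and Hbb-bt listed at 0. The 7 genes listed as natural killer cell markers were at 559 to 618 CPM against 184 to 475 CPM. Eomes was the most abundant of them, and Klra8 and Klra4 were at 0, so this sum does not by itself show natural killer cells. B cell markers reached 452 CPM in BAR replicate 3 at day 10 and at most 85.3 CPM in any other library. In bulk libraries, fewer cells of a type and less RNA per cell cannot be told apart.

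The 10 genes differed in how far they moved among the libraries. Between the lowest and the highest of all 16 libraries, CPM differed by 4.89-fold for Atf4, 3.51-fold for Asns, 3.30-fold for Trib3, 3.18-fold for Ddit4 and 2.27-fold for Sesn2. The corresponding range was 1.48-fold for Shmt2, 1.63-fold for Mthfd2 and 1.65-fold for Psat1. Divided by exon length, the level in BMF at day 10 was highest for Ddit4 (58.9 ± 11 CPM per kb, SD, n = 5) and Atf4 (53.8 ± 17.6 CPM per kb), which did not differ beyond their spread. Shmt2 (32.5), Mthfd2 (31.8) and Psat1 (28.9 CPM per kb) followed closely together, then Asns (11.4) and Ddit3 (8.24 CPM per kb). Sesn2 (1.69), Atf5 (1.65) and Trib3 (0.354 CPM per kb) were far lower. Trib3 rested on 14 to 51 counts per library and Atf5 on 57 to 155, so their values are less precise than those of the other genes.

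**Figure D1:**
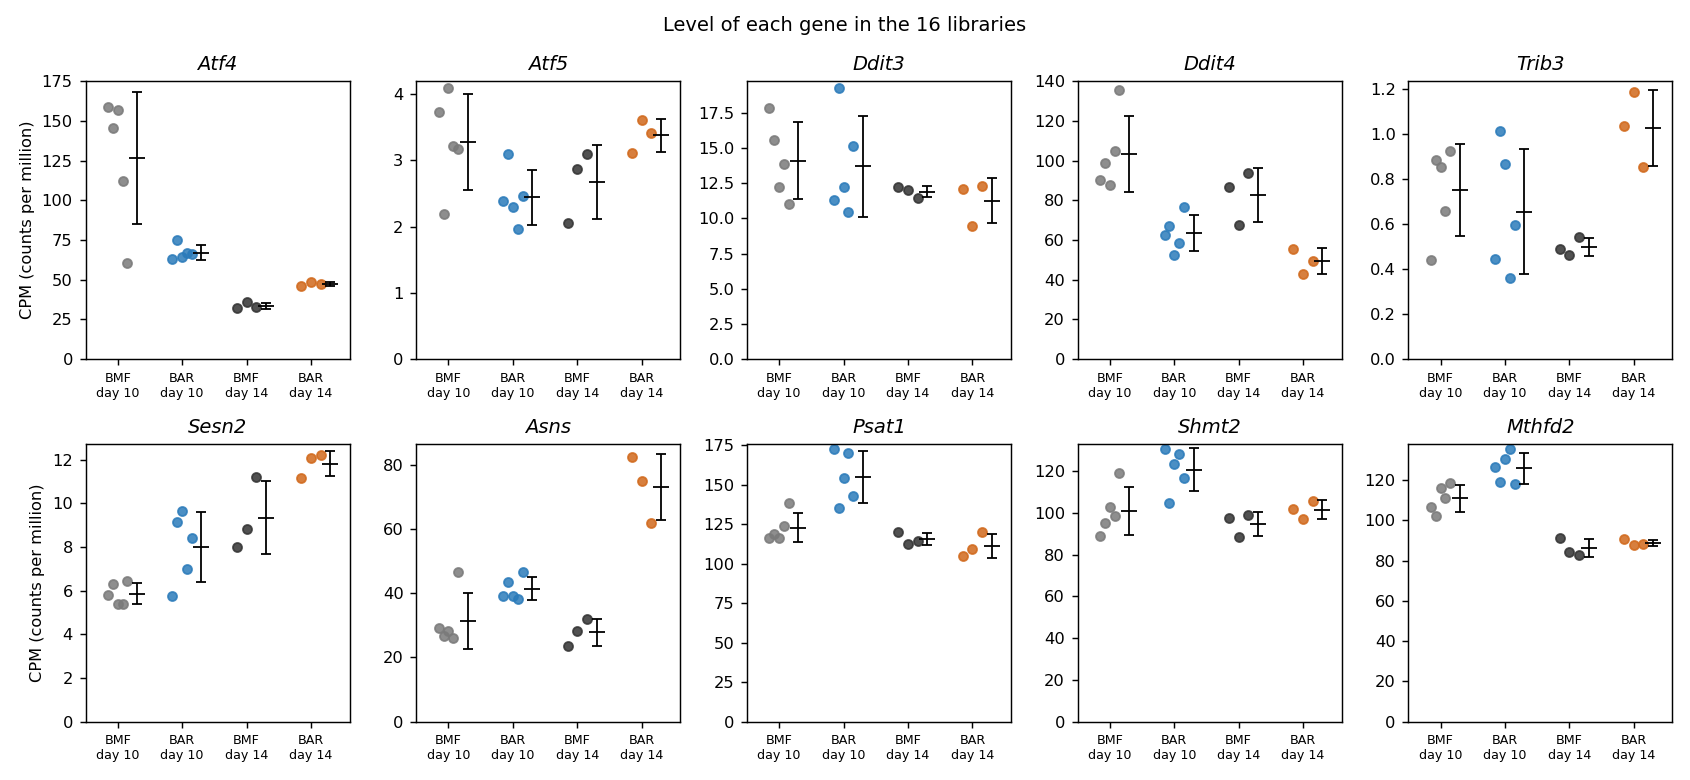
CPM of each of the 10 genes in every library, by group; points are libraries, the horizontal bar is the group mean and the vertical bar its SD (n = 5 at day 10, n = 3 at day 14). Atf4 is highest in 4 BMF libraries of day 10, Ddit4 is lower in BAR than in BMF at both days, and Asns is highest in the 3 BAR libraries of day 14.

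The first comparison asked what BAR changed at day 10. Atf4 and Ddit4 were lower with the drug, and none of the 10 genes was called higher. Fold changes come from edgeR's quasi-likelihood test with Benjamini-Hochberg adjustment over all 14862 genes, with a threshold of 0.05, and the same test gives every adjusted p below unless another is named. It called 2 of the 10 genes, both lower. Over all genes tested it called 14.4%, of which 965 genes (6.49%) were higher and 1180 (7.94%) lower. The median log2 fold change was -0.05 over the 10 genes and 0.00 over all genes.

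Atf4, the transcription factor at the head of the pathway (chromosome 15, 80255184 to 80257541, plus strand, GRCm38), stood at 159, 146, 157, 112 and 60.3 CPM in BMF replicates 1 to 5 at day 10. In BAR it stood at 63.0, 74.9, 64.3, 66.8 and 66.0 CPM. The first 4 BMF libraries were above every BAR library, while BMF replicate 5 was below all of them, so the groups overlapped. The means were 127 ± 41.6 CPM in BMF and 67.0 ± 4.67 CPM in BAR (SD, n = 5 each; log2 fold change -1.05, SE 0.209, adjusted p = 0.00697). The 5 BMF libraries fell in nearly the same order by Atf4 as by Rn45s: the 3 richest in Rn45s had the highest Atf4, and replicate 5 had the lowest of both. Without those 3 libraries the log2 value was -0.48 (edgeR adjusted p = 0.264), and with Rn45s as a covariate it was -0.37 (edgeR adjusted p = 0.547).

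**Figure D2:**
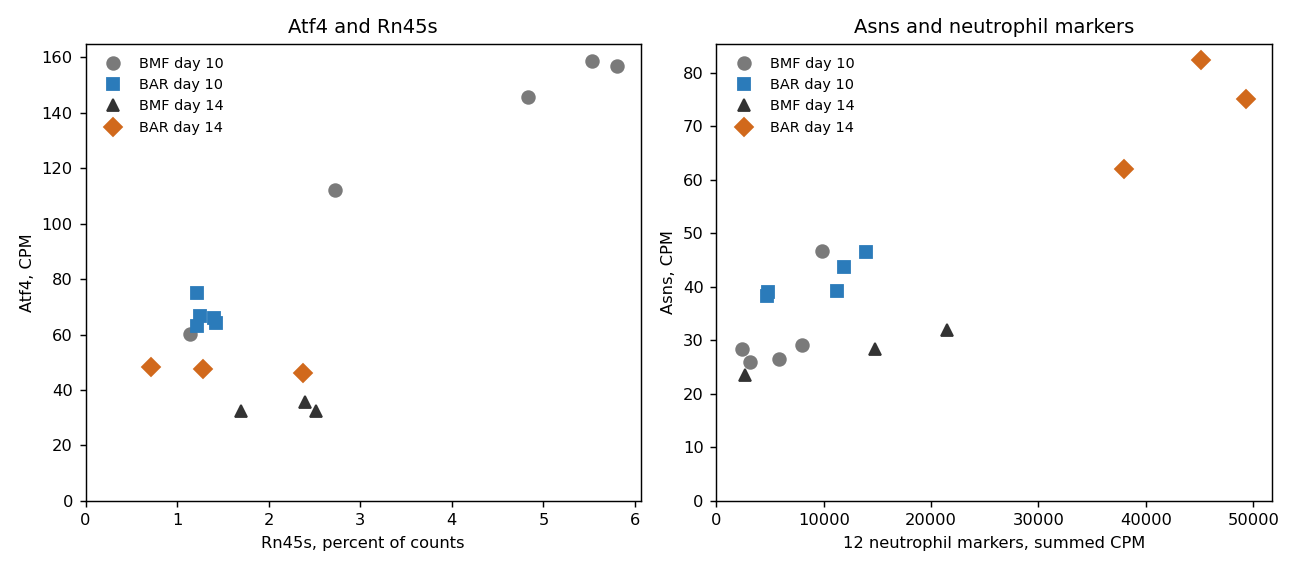
Left, CPM of Atf4 against the share of counts on Rn45s; right, CPM of Asns against the summed CPM of 12 neutrophil markers. Each point is 1 of the 16 libraries, marked by group. The 3 BMF libraries of day 10 with 4.83% to 5.81% Rn45s have the highest Atf4, and the 3 BAR libraries of day 14 are highest in both Asns and neutrophil markers.

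Ddit4 (chromosome 10, 59949669 to 59951834, minus strand) encodes REDD1, an inhibitor of the growth kinase complex mTORC1. At day 10 it stood at 90.1, 98.8, 87.5, 105 and 135 CPM in BMF replicates 1 to 5, and at 62.5, 66.9, 52.5, 58.2 and 76.6 CPM in BAR. Every BAR library was below every BMF library, as for 8.73% of all genes tested in one direction or the other. The means were 103 ± 19.2 CPM and 63.3 ± 9.14 CPM (SD, n = 5 each; log2 fold change -0.81, SE 0.119, adjusted p = 0.000535). BMF replicate 5, the lowest library for Atf4, was the highest for Ddit4. The fall of Ddit4 was called without the 3 libraries richest in Rn45s (log2 -1.01, edgeR adjusted p = 0.00443) and with Rn45s as a covariate (log2 -0.95, edgeR adjusted p = 0.00787).

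The other stress factors did not pass. Atf5, a close relative of Atf4 (chromosome 7, 44812256 to 44816658, minus strand), had a mean of 3.28 ± 0.721 CPM without the drug and 2.44 ± 0.411 CPM with it, a log2 value of -0.55 (SE 0.182, adjusted p = 0.0503). Its adjusted p was 0.0180 with DESeq2, 0.0483 in edgeR with RLE scaling and 0.0487 with limma voom, all calls, and 0.0301 to 0.146 in edgeR when single libraries were left out, with a call without BMF replicate 2, BMF replicate 5 or BAR replicate 2. Ddit3, which encodes the stress factor CHOP (chromosome 10, 127290774 to 127296288, plus strand), was at 14.1 ± 2.71 and 13.7 ± 3.58 CPM (log2 -0.17, adjusted p = 0.498). Trib3, a pseudokinase that binds Atf4 and restrains it (chromosome 2, 152337422 to 152344032, minus strand), was at 0.752 ± 0.203 and 0.656 ± 0.277 CPM (log2 -0.34, adjusted p = 0.470). Exons of Atf5 share up to 4.11% of their bases with genes on the opposite strand, those of Ddit3 up to 3.97% and those of Shmt2 1.03%, and the use of strand in counting is not given in the sources used here.

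Sesn2 and the enzymes had positive log2 values at day 10, and none passed. Sesn2, a leucine sensor that restrains mTORC1 (chromosome 4, 132492032 to 132510501, minus strand), averaged 5.87 ± 0.498 CPM without the drug and 8.0 ± 1.6 CPM with it (log2 0.33, adjusted p = 0.0800; 0.0313 in edgeR without BAR replicate 1). Psat1, which makes phosphoserine in the serine pathway (chromosome 19, 15904678 to 15947337, minus strand), was at 123 ± 9.20 and 155 ± 16.4 CPM (log2 0.23, adjusted p = 0.0619). Psat1 was called without BMF replicate 5 (0.26), without BAR replicate 2 (0.28) and without BAR replicate 1 or 2 of day 14 (0.24) in edgeR, and with all libraries in DESeq2 (0.23, adjusted p = 0.0427). Asns, asparagine synthetase (chromosome 6, 7675169 to 7693254, minus strand), stood at 29.0, 26.5, 28.4, 25.9 and 46.6 CPM in BMF and at 39.1, 43.6, 39.2, 38.3 and 46.5 CPM in BAR. Only BMF replicate 5 reached the BAR libraries (log2 0.29, SE 0.129, adjusted p = 0.132). Without it the log2 value was 0.46 and the gene was called (edgeR adjusted p = 0.00334). The mitochondrial one-carbon enzymes Shmt2 (chromosome 10, 127517123 to 127522444) and Mthfd2 (chromosome 6, 83305691 to 83325908), both on the minus strand, had log2 values of 0.15 and 0.07 (adjusted p = 0.210 and 0.503).

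The scaling of the libraries matters for these small rises. TMM scaling moved every gene's day 10 fold change by 0.11 on the log2 scale relative to library totals. Without it 6 of the 10 genes were called at day 10, because Sesn2 (0.44), Psat1 (0.34), Shmt2 (0.26) and Mthfd2 (0.18) were then called higher in edgeR beside the falls of Atf4 and Ddit4. Over all genes the calls were then 2364 higher and 643 lower, against 965 and 1180 with TMM. The number of the 10 genes called was 5 without BMF replicate 5, where 3615 of all genes were called, and 4 without BAR replicate 2, where 1933 were. It was 1 (Ddit4) without the 3 libraries richest in Rn45s, where 111 of all genes were called.

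**Figure D3:**
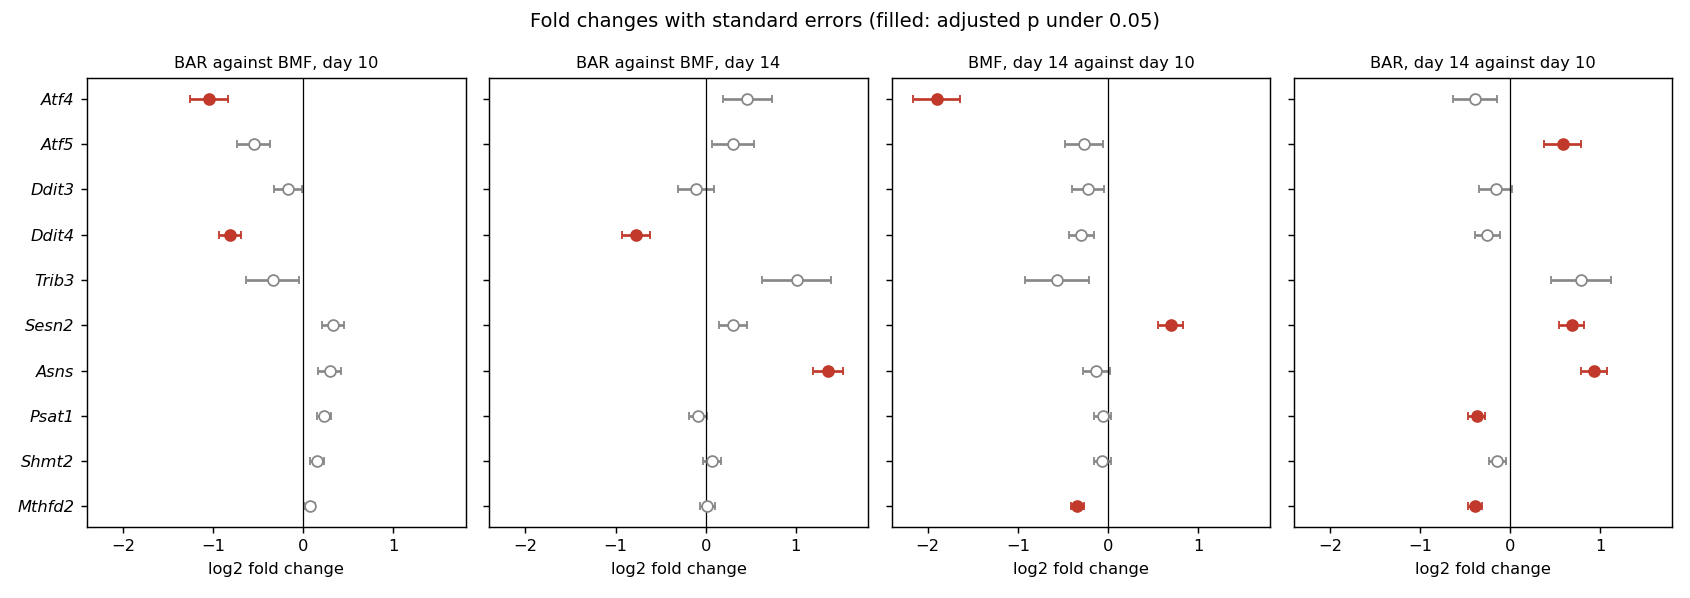
Log2 fold changes of the 10 genes with their standard errors, for BAR against BMF at each day and for day 14 against day 10 in each group; filled points have an adjusted p under 0.05 in edgeR. Ddit4 is lower with BAR at both days (-0.81 and -0.77), Asns is higher at day 14 (1.36), and Atf4 falls with time in BMF (-1.90).

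The same question at day 14 gave a different set of changes. Asns was 2.57-fold higher with BAR, and Ddit4 was lower again. These were 2 of the 10 genes, 1 higher and 1 lower, against 25.2% of all genes tested (12.9% higher and 12.2% lower). The median log2 fold change was 0.19 over the 10 genes and -0.01 over all.

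Asns stood at 23.5, 28.3 and 31.9 CPM in the BMF libraries of day 14 and at 82.4, 75.0 and 61.9 CPM in BAR. The lowest BAR library was nearly double the highest BMF library. The means were 27.9 ± 4.21 and 73.1 ± 10.4 CPM (SD, n = 3 each; log2 fold change 1.36, SE 0.168, adjusted p = 5.33e-05), and the call was kept when any 1 of the 16 libraries was left out (1.25 to 1.47). Neutrophil markers summed to 45150, 49360 and 38010 CPM in these BAR libraries and to 2680, 14770 and 21520 CPM in BMF, and the library with the most Asns in BMF was also the one with the most of these markers. With the neutrophil sum as a covariate the log2 value was 1.03 (edgeR adjusted p = 0.00171). Erythroid markers summed to 11.8, 20.7 and 23.6 CPM in these BMF libraries and to 1241, 722 and 632 CPM in BAR. Within each group they fell in the same order as Asns. Their part in the Asns value was not tested, and the neutrophil covariate does not account for them.

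Ddit4 stood at 86.7, 67.6 and 93.7 CPM in BMF and at 55.6, 42.6 and 49.4 CPM in BAR at day 14. All 3 BAR libraries were below all 3 BMF libraries, and 42.3% of all genes tested had no overlap in one direction or the other. The means were 82.6 ± 13.5 and 49.2 ± 6.49 CPM (SD, n = 3 each; log2 fold change -0.77, SE 0.154, adjusted p = 0.00165). With the neutrophil sum as a covariate the log2 value was -0.86 (edgeR adjusted p = 0.0135). Ddit4 was called lower at both days under every alternative run, and over the libraries left out in turn its log2 value ran from -0.89 to -0.72 at day 10 and from -0.88 to -0.68 at day 14.

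Atf4 itself stood at 32.5, 35.7 and 32.5 CPM in BMF and at 46.1, 48.3 and 47.4 CPM in BAR at day 14. The groups did not overlap, as for 42.3% of all genes tested in one direction or the other. The spread within each was small, with means of 33.6 ± 1.84 and 47.3 ± 1.09 CPM (SD, n = 3 each). The gene did not pass (log2 fold change 0.46, SE 0.270, adjusted p = 0.232) in the fit over all 16 libraries, whose shared dispersion includes the wide spread of the BMF group at day 10. In a fit of the 6 libraries of day 14 alone it was called higher (log2 0.50, edgeR adjusted p = 0.00820), as it was without BMF replicate 5 of day 10 (0.47, edgeR adjusted p = 0.00459) and with Rn45s as a covariate (0.81, edgeR adjusted p = 0.00873).

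Of the other genes, Trib3 ranged from 0.463 to 0.543 CPM without the drug and from 0.853 to 1.19 CPM with it at day 14, a log2 value of 1.01 (SE 0.383, adjusted p = 0.0610). Its groups did not overlap. DESeq2 called it (adjusted p = 0.0411), as did edgeR on the libraries of day 14 alone (adjusted p = 0.0354) and without BMF replicate 1 (0.0486) or BAR replicate 2 (0.0496) of day 10. Atf5 ranged from 2.05 to 3.10 CPM without the drug and from 3.11 to 3.61 CPM with it, a gap between the groups far smaller than the spread within them (log2 0.30, adjusted p = 0.365). Sesn2 stood at 8.0, 8.83 and 11.2 CPM in the BMF libraries and at 11.1, 12.1 and 12.2 CPM in those with BAR, which overlapped (log2 0.31, adjusted p = 0.154). In all, 5 of the 10 genes had groups that did not overlap at day 14, against 42.3% of all genes tested. The 3 enzymes of serine and one-carbon metabolism stayed close to their BMF level, with log2 values of -0.09 for Psat1 (95% interval -0.29 to 0.12), 0.07 for Shmt2 (-0.13 to 0.27) and 0.02 for Mthfd2 (-0.15 to 0.18). Whether Asns differed from these 3 enzymes in its response was not tested.

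Whether the drug effect differed between the days was tested directly. It did for Atf4 and Asns, 2 of the 10 genes, against 10.3% of all genes tested (743 genes with a higher effect at day 14, and 792 or 5.33% with a lower one). The effect on Atf4 went from -1.05 at day 10 to 0.46 at day 14, a difference of 1.51 on the log2 scale (SE 0.342, adjusted p = 0.0154). The difference was 0.94 without the 3 libraries richest in Rn45s and was then not called (edgeR adjusted p = 0.0733). The effect on Asns rose from 0.29 to 1.36, a difference of 1.06 (SE 0.210, adjusted p = 0.00501). That on Ddit4 was -0.81 and -0.77, a difference of 0.04 with a 95% interval of -0.34 to 0.42. Trib3 (1.35, adjusted p = 0.0831) and Atf5 (0.85, adjusted p = 0.0729) did not pass, although DESeq2 called both (adjusted p = 0.0488 and 0.0269). In edgeR Trib3 was called without BAR replicate 2 of day 10 (1.53), as was Psat1 (-0.37), and Atf5 without BMF replicate 2 of day 10 (0.96). With no composition scaling, 546 of all genes had a higher and 1241 a lower difference, against 743 and 792 with TMM.

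The change with time in untreated mice compared 3 BMF libraries of day 14 with the 5 of day 10, which also served as controls of the drug comparison. Atf4 and Mthfd2 fell and Sesn2 rose, 3 of the 10 genes, against 38.5% of all genes tested (17.6% higher and 20.9% lower). The median log2 fold change was -0.24 over the 10 genes and -0.05 over all. The log2 fold change of Atf4 was -1.90 (SE 0.260, adjusted p = 0.000124), with every library of day 14 (32.5 to 35.7 CPM) below every library of day 10 (60.3 to 159 CPM). Without the 3 libraries richest in Rn45s it fell by 1.33 (edgeR adjusted p = 0.00139). Mthfd2 averaged 111 ± 6.66 CPM at day 10 and 86.2 ± 4.41 CPM at day 14, a log2 value of -0.34 (SE 0.0753, adjusted p = 0.00217). Sesn2 averaged 5.87 ± 0.498 CPM and then 9.34 ± 1.66 CPM, a log2 value of 0.70 (SE 0.138, adjusted p = 0.000914). For all 3 genes the days did not overlap, as for 34.6% of all genes tested. Ddit4 had a log2 value of -0.29 (adjusted p = 0.0982).

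Under BAR, 5 of the 10 genes changed between the days, against 39.1% of all genes tested (19.2% higher and 19.8% lower). Asns, Sesn2 and Atf5 rose, and Psat1 and Mthfd2 fell. The medians were -0.15 over the 10 genes and -0.04 over all. Asns averaged 41.3 ± 3.59 CPM (n = 5) and then 73.1 ± 10.4 CPM (n = 3), a log2 value of 0.93 (SE 0.145, adjusted p = 0.000130). Sesn2 averaged 8.0 ± 1.6 CPM and then 11.8 ± 0.575 CPM, a log2 value of 0.68 (SE 0.137, adjusted p = 0.00102). Mthfd2 stood at 127, 119, 131, 135 and 118 CPM at day 10 and at 90.7, 87.8 and 88.4 CPM at day 14, with no overlap (log2 -0.39, SE 0.0754, adjusted p = 0.000722). Psat1 went from 155 ± 16.4 to 111 ± 7.86 CPM (a log2 change of -0.37, SE 0.0930, adjusted p = 0.00500), while Shmt2 gave -0.14 (adjusted p = 0.221).

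Atf5 rose from 2.44 ± 0.411 to 3.38 ± 0.255 CPM under BAR (log2 0.58, SE 0.206, adjusted p = 0.0321). Leaving out BAR replicate 1, 3 or 4 of day 10, or BAR replicate 2 or 3 of day 14, ended the call (edgeR adjusted p = 0.0503 to 0.119). In 6 of the 10 genes the days did not overlap, against 43.5% of all genes tested. Atf4 was among them (63.0 to 74.9 CPM at day 10, 46.1 to 48.3 CPM at day 14) but did not pass in the fit of all libraries (log2 -0.39, adjusted p = 0.217). It was called in the 8 BAR libraries alone (-0.41, edgeR adjusted p = 0.00149) and without BMF replicate 5 of day 10 (-0.40, edgeR adjusted p = 0.00394). Ddit4 gave -0.26 (adjusted p = 0.148) and Trib3 0.78 (adjusted p = 0.0667). Ddit4 was called without BAR replicate 3 of day 10 (-0.34) and Trib3 without BAR replicate 2 of that day (0.97) in edgeR, and limma voom called Trib3 with all libraries (0.89, adjusted p = 0.0272). The neutrophil sum rose between these groups too, from 4727 to 13900 CPM up to 38010 to 49360 CPM. With it as a covariate only Asns of the 5 calls was kept (log2 0.57, edgeR adjusted p = 0.0354), and Sesn2 gave 0.34, Atf5 0.42, Psat1 -0.21 and Mthfd2 -0.22 (edgeR adjusted p = 0.136 to 0.373). Over all genes that fit made 1864 calls in this comparison, against 5808 without the covariate. With no composition scaling, 1883 of all genes were called higher and 4238 lower in this comparison, against 2859 and 2949 with TMM.

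Upstream of Atf4, the list of eIF2 alpha kinases, eIF2 and its phosphatase had 18 genes tested. At day 10 BAR raised 2 and lowered 2 of them, against 14.4% of all genes called. That background applies to each list below at day 10, with 25.2% at day 14, 38.5% in BMF over time and 39.1% under BAR over time. Eif2ak2, the double-stranded RNA sensor PKR and itself an interferon-stimulated gene, went from 49.8 ± 4.20 to 77.6 ± 2.03 CPM (a log2 change of 0.52, SE 0.0748, adjusted p = 0.000460). Eif2ak4, the amino acid sensor GCN2, went from 12.6 ± 1.36 to 10.5 ± 0.714 CPM (a log2 change of -0.37, SE 0.107, adjusted p = 0.0275). Eif2ak3, the endoplasmic reticulum stress kinase PERK, also fell (-0.35, SE 0.0937, adjusted p = 0.0213), and Eif2b2, a subunit of the eIF2B exchange factor, rose (0.23, adjusted p = 0.0456). Without BMF replicate 5 the count at day 10 was 7 higher and 2 lower. It was 1 and 0 without BMF replicate 3, without BAR replicate 4 or without the 3 libraries richest in Rn45s, and 1 and 1 without BMF replicate 2 or 4 or BAR replicate 1 or 5. Without those 3 libraries 111 of all genes were called at day 10, against 2145 with them. At day 14 Eif2b3 rose (0.43) and Gcn1l1, the partner of GCN2 on ribosomes, fell (-0.79, SE 0.166, adjusted p = 0.00274). Eif2ak2 was not called at day 14, and its drug effect differed between the days by -0.79 (SE 0.122, adjusted p = 0.00108). For that difference 0 of the 18 genes were higher and 2 lower, against 10.3% of all genes called. Under BAR Eif2ak2 fell from 77.6 ± 2.03 CPM at day 10 to 45.2 ± 2.35 CPM at day 14 (log2 -0.67, adjusted p = 2.41e-05). The median of the list was 0.07 at day 10 and 0.09 at day 14, against 0.00 and -0.01 over all genes.

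Of 12 other leucine zipper factors that can pair with Atf4 or share its sites, 1 rose and 2 fell at day 10, and 5 rose and 1 fell at day 14. At day 14 Cebpb rose from 82.8 ± 26 to 209 ± 45.4 CPM (a log2 change of 1.31, SE 0.254, adjusted p = 0.00236). Cebpa rose from 1.41 ± 0.993 to 5.59 ± 1.10 CPM (log2 1.95, SE 0.412, adjusted p = 0.00243). Cebpd (1.91) and Nfe2l2, a factor of the oxidative stress response (0.71), rose as well. The C/EBP genes are also known as factors of myeloid cells, and the neutrophil and monocyte markers were highest in the same 3 BAR libraries. With the neutrophil sum as a covariate 1 gene of this list rose and 0 fell at day 14, and 3 rose and 0 fell without BMF replicate 2, BAR replicate 1 or BAR replicate 3 of that day. The covariate fit called 1016 of all genes at day 14, against 3738 without the covariate.

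The list of other known Atf4 targets had 31 genes tested. At day 10 3 rose and 2 fell, with a median of 0.05 on the log2 scale. At day 14 10 rose and 1 fell, with a median of 0.30, against -0.01 over all genes. Cars, the cysteinyl-tRNA synthetase, rose at day 14 from 27.8 ± 2.87 to 42.2 ± 2.36 CPM (log2 0.57, SE 0.103, adjusted p = 0.000739). Eif4ebp1, a translation inhibitor held off by mTORC1, rose from 15.1 ± 6.81 to 51.4 ± 15.7 CPM (log2 1.75, SE 0.370, adjusted p = 0.00451). The glycine transporter Slc6a9 had 0 to 2 counts per library in BMF and 54 to 85 in BAR at day 14, and 11 to 44 in both groups at day 10. Erythroid markers also differed at day 14, with 11.8 to 23.6 CPM in BMF and 632 to 1241 CPM in BAR. Slc6a9 was called with the neutrophil sum as a covariate too, but the part of erythroid cells in its change was not tested.

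Ndrg1, a stress-responsive gene that hypoxia also induces, changed in opposite directions at the 2 days. It went from 11.4 ± 2.35 to 4.37 ± 0.823 CPM at day 10 (a log2 change of -1.51, SE 0.153, adjusted p = 1.66e-05) and from 4.89 ± 0.851 to 9.02 ± 0.770 CPM at day 14 (log2 0.86, SE 0.195, adjusted p = 0.00415). The difference between the days was 2.36 (SE 0.249, adjusted p = 0.000259). With the neutrophil sum as a covariate 3 of the 31 targets rose and 0 fell at day 14, and Cars (0.51, edgeR adjusted p = 0.0278) and Eif4ebp1 (0.89, edgeR adjusted p = 0.0491) were called in that fit while Ndrg1 was not (0.71, edgeR adjusted p = 0.105). The same fit called 1016 of all genes at day 14, against 3738 without the covariate. From day 10 to day 14 10 of the 31 rose and 1 fell under BAR, and 3 rose and 6 fell in BMF. The drug effect was higher at day 14 than at day 10 for 4 and lower for 0. Over all genes tested, 10.3% were called for this difference in one direction or the other. The 4 included Slc6a9 and Vldlr, for which BMF had 3 and 0 counts in all at day 14. At day 10 0 targets rose and 1 fell without the 3 libraries richest in Rn45s, and also without any single one of BMF replicates 1 to 4 or BAR replicate 4. Of all genes, 111 were called at day 10 without those 3 libraries, against 2145 with them. Over all the libraries left out in turn 0 to 4 targets rose and 1 to 2 fell at day 10.

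**Figure D4:**
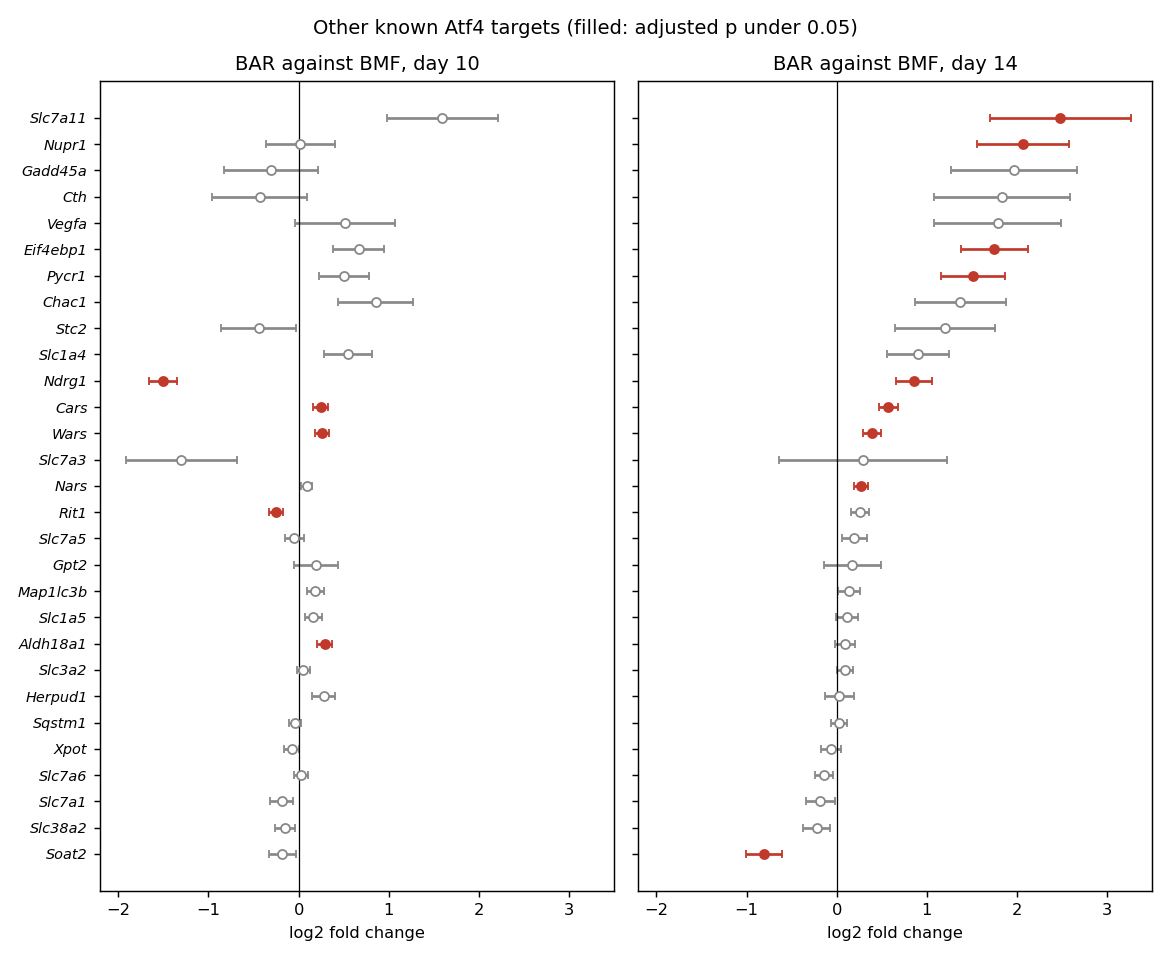
Log2 fold changes with standard errors of 29 of the 31 tested Atf4 targets outside the 10 genes, for BAR against BMF at day 10 (left) and day 14 (right); filled points have an adjusted p under 0.05 in edgeR. Slc6a9 and Vldlr are left out because BMF had 3 and 0 counts in all at day 14. Ndrg1 is at -1.51 on the left and 0.86 on the right.

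Around the serine and one-carbon enzymes, 23 further genes of that metabolism were tested, of which 1 rose and 1 fell at day 10 and 3 rose and 1 fell at day 14. At day 10 5 rose and 1 fell without BMF replicate 5, 3 and 1 without BAR replicate 2, and 6 and 1 with no composition scaling. At day 14 1 rose and 0 fell without BMF or BAR replicate 2, and 2 and 0 without BMF replicate 1 or 3 or BAR replicate 1. Gldc, the glycine decarboxylase that feeds one-carbon units from glycine, went from 53.7 ± 11.1 to 20.8 ± 6.05 CPM with BAR at day 10 (a log2 change of -1.47, SE 0.241, adjusted p = 0.00251). Tyms, thymidylate synthase, rose (0.29, adjusted p = 0.0134). At day 14 Mthfd1 (0.39), Pfas (0.45) and Gart (0.33), which make folates and purines, rose, and the methionine synthase Mtr fell (-0.35). From day 10 to day 14 2 rose and 6 fell under BAR, and 2 rose and 4 fell in BMF. Mtfmt (-0.55) and Tyms (-0.44) were among those that fell under BAR, and Gldc rose (1.37). In BMF Mthfd2l rose (0.62). Among 10 proliferation genes 8 fell under BAR over the same days and 5 in BMF, with 0 rising in either. Birc5 (-0.93), Mki67 (-0.99), Top2a (-0.72) and Cdk1 (-0.63) fell under BAR. Of 16 MYC growth genes 6 fell and 1 rose under BAR, and 10 fell and 1 rose in BMF, against 19.8% and 20.9% of all genes lower. The falls under BAR were 2 without BAR replicate 2 or 3 of day 14. In the drug comparison 5 MYC growth genes rose and 1 fell at day 14 (3 and 0 without BMF replicate 2), and 1 rose and 0 fell at day 10. Of the proliferation genes 3 rose and 0 fell with BAR at day 10, and 0 rose and 3 fell at day 14. Left out in turn, libraries gave 0 to 4 proliferation genes higher at day 10 (0 without BMF replicate 1 or 2) and 1 to 3 lower at day 14 (1 without BMF replicate 1 or 2 or BAR replicate 2). The MYC and proliferation genes that fell over time moved beside Mthfd2 in both groups, and beside Psat1 under BAR only. In BMF Psat1 was not called (log2 -0.06, edgeR adjusted p = 0.646). The part of the MYC and proliferation genes in the falls of Mthfd2 and Psat1 was not tested. Of 12 asparagine, proline and glutamine enzymes 0 rose and 2 fell at day 10, among them Glud1 (-0.22), and 1 rose and 1 fell at day 14, where Asrgl1 fell (-0.28). Left out in turn, libraries gave 0 to 2 higher and 0 to 2 lower at day 10 (0 and 0 without BMF replicate 4 or BAR replicate 5), and 0 to 1 in each direction at day 14 (0 and 0 without BMF replicate 1 or 2 or BAR replicate 2).

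Ddit4 and Sesn2 both restrain mTORC1. Of 31 other genes of that complex and its regulators, edgeR called 0 at day 10, with 9 at an unadjusted p under 0.05, while DESeq2 called 2 and limma voom 0. Without BMF replicate 5 edgeR called 7 higher at day 10, with BAR replicate 1 or 2 of day 14 left out it called 2 or 3 higher, and without BMF replicate 3 of day 14 it called 1 higher. It called 1 lower without BAR replicate 2 or 3. At day 14 BAR raised 3 and lowered 6, and both directions held restrainers and subunits of the complex. Of the restrainers, Depdc5 (-0.58) and Sesn3 (-0.39) fell and Deptor (1.90) rose, the last from 0.482 to 1.85 CPM. The restrainers Gatsl2 (-0.77) and Tsc2 (-0.39), named after their values were seen, fell as well. Of the subunits, Mlst8 rose (0.50), and Rptor (-0.42) and Mtor (-0.48), named after their values were seen, fell. The count was 2 higher and 2 lower without BMF replicate 2, and 2 and 3 without BAR replicate 2. In BMF 13 rose and 0 fell from day 10 to day 14, led by Tsc2 (0.82), Gatsl2 (1.0), Sesn1 (0.61) and Rragc (0.39). That count was 4 and 0 without the 3 libraries richest in Rn45s, 8 and 0 without BMF replicate 1 of day 10 or replicate 2 of day 14, and 6 and 0 without BMF replicate 3 of day 14. Without those 3 libraries 2459 of all genes were called in BMF over time, against 5728 with them. With no composition scaling 8 rose at day 10.

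Genes of other known inducers of Ddit4 were counted beside it. Of 11 hypoxia targets 0 rose and 7 fell with BAR at day 10, with a median of -0.39 on the log2 scale. They included P4ha1 (-0.55, SE 0.105, adjusted p = 0.00317), Egln1 (-0.40), the glucose transporter Slc2a1 (-0.39) and Pdk1 (-0.45). At day 14 2 rose (Ero1l and Bnip3) and 2 fell (Kdm3a and Egln1). The count at day 10 was 0 and 3 without the 3 libraries richest in Rn45s, 0 and 1 with Rn45s as a covariate, and 0 and 4 without BAR replicate 3 or 4. Of all genes, 111 were called without those 3 libraries and 86 with that covariate. Without BAR replicate 3 or 4 it was 1440 or 1432, against 2145 with all 16 libraries and no covariate. At day 14 the count of hypoxia targets was 2 and 0 without BMF replicate 1. Of 10 p53 targets 0 rose and 2 fell at day 10 (Cdkn1a, -0.95, and Zmat3, -0.96), and 3 fell at day 14 (Zmat3, -0.83, Ccng1, -0.42, and Phlda3, -0.68). At day 14 1 p53 target rose and 4 fell without BMF replicate 1 of day 10. Of 8 glucocorticoid-related genes 1 fell at day 10 (Per1, -0.42), and 0 did without any one of BMF replicates 1 to 3 or BAR replicates 1, 3 and 4. At day 14 Fkbp5 (-0.70) and Sgk1 (-0.65) fell and Klf9 (0.66) rose.

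The genes whose levels followed the members most closely over the 16 libraries were found among 8458 genes by Pearson's r of log2 CPM, as a description. They are named here for Atf4, Ddit4 and Mthfd2 only, and those of the other members, Asns among them, are not reported here. The libraries share their group, their depth and any change in composition. Hsp90aa1 (r = 0.985), Cdk11b (r = 0.978) and Upf3b (r = 0.975) were most like Atf4. Hsp90aa1 stood at 941, 918, 1064 and 862 CPM in BMF replicates 1 to 4 of day 10 and at 418 CPM in replicate 5, which was also the lowest of that group for Atf4. In the libraries of day 14 Hsp90aa1 was lower again (222 to 371 CPM). Dnajc15 (r = 0.918), Podnl1 (r = 0.913) and Serpinb6b (r = 0.907) were most like Ddit4, and Nup85 (r = 0.979), Exo1 (r = 0.978) and Wdhd1 (r = 0.977) most like Mthfd2. Mean Dnajc15 was 252 and 155 CPM in BMF and BAR at day 10, and 198 and 108 CPM at day 14.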

How the data were processed

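The authors deposited raw counts of reads per gene symbol, whole numbers with no normalisation. The submitters' processing notes name HISAT2 2.0.5 and the build mm10. Libraries were polyA RNA made with the SMART-Seq mRNA LP kit, per the labels' protocols. How reads were assigned to genes, and whether strand was used, is not given in the sources used here. Of 24421 entries, 27 carried dates in place of symbols (0.234% to 0.293% of counts) and were left out. Library totals were 26134894 to 58823116 counts.

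Counts were tested in R 4.3.3 with edgeR 4.0.16: its filter on low counts by group, TMM scaling, robust quasi-likelihood dispersions (common biological coefficient of variation 0.198) and 1 mean per group over 16 libraries, with no covariate. DESeq2 1.42.0 and limma 3.58.1 (voom) were alternatives. A standard error (SE) is the log2 fold change divided by the square root of F, taken as positive, and 95% intervals are 1.96 SE on either side. CPM are counts scaled to a library total of 1000000 without TMM, so a ratio of mean CPM can differ from a fold change. Log2 CPM used a prior count of 2. Positions and exon lengths are from GENCODE vM21 (GRCm38, mm10), in which Ddit3 has a second, shorter entry, and promoters from RefSeq. The tests were checked on simulated counts.

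The 10 genes and all lists were chosen with earlier results of these data known. From each list, up to 4 genes per comparison with the smallest adjusted p under 0.05 could be named. Some comparisons share libraries. Replicate numbers are accession order and pair nothing. Some genes that the rule would name are not reported here.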

Additional observations from a re-analysis of the deposited data

Results flagged for a closer look

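Asns stood at 46.6 CPM in BMF replicate 5 of day 10, while the other 4 libraries of that group lay between 25.9 and 29.0 CPM. It is 1 of 20 groups of 5 libraries checked for a single value far from the rest by Dixon's test, of which chance would mark about 1. The same library was the lowest of its group in Atf4 (60.3 CPM) and in Rn45s (1.15% of counts), and the highest in Ddit4 (135 CPM) and in neutrophil markers (9876 CPM). It was also the highest in erythroid markers, at 187 CPM against 31.4 to 73.7 CPM in the other 4 libraries. The part of these in its Asns value was not tested.

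The effect of BAR on Atf4 differed between the days by 1.51 on the log2 scale, from 127 and 67.0 CPM in BMF and BAR at day 10 to 33.6 and 47.3 CPM at day 14. BAR was below the BMF mean in 5 of 5 libraries at day 10 but above BMF replicate 5 in all of them, and above all BMF libraries in 3 of 3 at day 14.

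The effect of BAR on Asns differed by 1.06 on the log2 scale, from 31.3 and 41.3 CPM at day 10 to 27.9 and 73.1 CPM at day 14.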

How the results depend on the processing

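Each result was recomputed under 25 alternatives, 16 of which left out 1 library, except that a fit of only the groups compared has no difference between days; the fit without composition scaling and the recounts of the pathway lists were added after the data were seen. No paired analysis was possible because the labels give no replicate numbers that libraries of different groups share. Among genes called, the number was 86 at day 10 with Rn45s as a covariate and 111 without the 3 BMF libraries richest in Rn45s, where BMF time gave 2459 and the difference between days 413. With the neutrophil covariate it was 1328 at day 10, 1016 at day 14 and 1864 for BAR over time. Among the 10 genes, day 10 gave 4 with DESeq2, 1 with the Rn45s covariate, 1 without the Rn45s-rich libraries and 6 without scaling, and day 14 gave 4 in the fit of the groups compared. BAR over time gave 1 with the neutrophil covariate, and the difference between days gave 4 with DESeq2 and 1 without the Rn45s-rich libraries. Leaving out 1 library gave 1036 to 3615 genes at day 10, 2119 to 4051 at day 14, 4348 to 6260 for BMF time, 3842 to 6117 for BAR time and 679 to 2025 for the difference, and 2 to 5, 2 to 3, 3 to 3, 4 to 6 and 2 to 4 of the 10 genes. In BMF over time DESeq2 called 2620 genes higher and 4595 lower, against 2623 and 3105.

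Log2 values changed sign in 36 cases over 12 results, and 0 of these were called either way. For the difference between days, Sesn2 was 0.0051 with RLE scaling, 0.0046 with DESeq2, 0.020 with limma voom and 0.010 with the Rn45s covariate. Ddit3 was -0.11 with the Rn45s covariate, -0.028 with the neutrophil covariate, -0.14 without the Rn45s-rich libraries and -0.035 without scaling. Ddit4 was -0.019 with the neutrophil covariate and -0.041 without scaling, Mthfd2 0.055 with the neutrophil covariate, and Shmt2 1.3e-05 without the Rn45s-rich libraries. At day 10 Ddit3 was 0.16 with the Rn45s covariate and 0.027 without the Rn45s-rich libraries. At day 14 it was 0.050 with the Rn45s covariate, and with the neutrophil covariate Sesn2 was -0.0073 and Psat1 0.060, and Psat1 in BMF over time 0.0013. Leaving out 1 library gave ranges of -0.040 to 0.194 for Ddit3, -0.074 to 0.119 for Ddit4 and -0.134 to 0.112 for Sesn2 in the difference between days, -0.227 to 0.016 for Asns in BMF over time, and -0.015 to 0.053 for Mthfd2 and -0.175 to 0.0043 for Ddit3 at day 14. The causes were not tested. Depth limits Trib3 most, with 14 to 51 counts per library.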
